A study of Oryctolagus cuniculus with 12 samples.

Results

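Genes that mark or serve lymphatic vessels were followed in rabbit conjunctiva after trabeculectomy, a glaucoma operation that leads aqueous humor under the conjunctiva, where it collects in a filtering bleb. The set was a list of 10 gene names: VEGFC, VEGFD and its older symbol FIGF, FLT4, LYVE1, PROX1, PDPN, NRP2, RELN, and STAB2. A gene belonged to the set if its name in the deposited gene table equalled one of these. In all, 9 of 20566 genes were found this way, with VEGFD present as FIGF. Of these, 8 had enough reads to be tested, among 14835 genes tested in total. STAB2 did not pass the filter on low counts.

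All tissue came from female Japanese white rabbits, whose age and genotype the labels do not give. The right eye was operated on with mitomycin C, an agent that limits scarring, and conjunctiva with the bleb was taken after 3 hours (TL3h group), 3 days (TL3d group), or 14 days (TL14d group). The operation as the study describes it ended with betamethasone, a glucocorticoid, injected at the conjunctiva, and an ointment of erythromycin and colistin. Effects of the surgery and of these drugs cannot be told apart. The control group was conjunctiva of left eyes without an operation. Each group held 3 libraries, and the labels do not match control eyes to operated eyes. The libraries held between 27111348 and 38591425 estimated counts each. Levels are given as CPM, the counts of a gene relative to the library size after scaling by edgeR's TMM method. Groups were compared by the quasi-likelihood test of edgeR, q denotes its p-value after Benjamini-Hochberg adjustment, and the threshold was 0.05. These tests measure the spread between the 3 libraries of a group. The tissue was whole conjunctiva, so a lower level can mean fewer cells of a type or less RNA per cell, and these cannot be told apart. Some libraries stood apart from their group: over all genes, TL14d replicate 1 had a mean correlation of 0.969 with the control libraries and of 0.914 with the other TL14d libraries.

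Lymphatic vessels take up tissue fluid and cells and return them to the blood. In the conjunctiva, they lie beneath the epithelium and are one of the routes by which fluid can leave a bleb. PROX1 is the transcription factor that sets and keeps lymphatic endothelial identity. FLT4 encodes VEGFR-3, the receptor through which the growth factors VEGF-C and VEGF-D drive lymphatic growth, and NRP2 encodes neuropilin-2, a coreceptor for VEGF-C that also binds semaphorins. LYVE1 and STAB2 encode hyaluronan receptors of endothelium, and LYVE1 is also made by some tissue macrophages. PDPN encodes podoplanin, the ligand of the platelet receptor CLEC-2, which is found on lymphatic endothelium and also on activated fibroblasts, some macrophages, and basal epithelium. RELN encodes reelin, a secreted glycoprotein that lymphatic endothelium makes and that other cells make as well.

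Positions are those of the authors' table on OryCun2.0. LYVE1 (gene ID 100347960) lies on chromosome 1 from 152332037 to 152347942, VEGFC (100338211) on chromosome 2 from 54161431 to 54278581, and STAB2 (100355190) on chromosome 4 from 82735755 to 82940170. RELN (100341603) and NRP2 (100353265) both lie on chromosome 7, from 39741702 to 40268704 and from 146459482 to 146576475. PROX1 (100357251) lies on chromosome 16 from 59146873 to 59199119, and FIGF, which has no gene ID in the table, on chromosome X from 1210958 to 1244039. FLT4 (100008829) and PDPN (103352509) are on unplaced sequence. None of the 9 genes overlapped another gene of the table. The table lists 6 transcripts of NRP2, 5 of PROX1, 2 of PDPN, and 1 of each other gene.

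Levels of different genes can be compared per length only, for which the authors' FPKM values were used. In the control group, PDPN had the highest median of the 9 genes at 23.4 FPKM, followed by LYVE1 at 10.7 FPKM, VEGFC at 4.55 FPKM, FLT4 at 2.62 FPKM, FIGF at 2.04 FPKM, NRP2 at 1.21 FPKM, RELN at 1.02 FPKM, PROX1 at 0.841 FPKM, and STAB2 at 0.00585 FPKM. In that order, each gene overlapped with the next over the control libraries, except that PROX1 stood above STAB2 in every library. NRP2 ranked below FIGF in the control group, next after LYVE1 in the TL3d group (median 14.2 FPKM), and next after PDPN in the TL14d group (18.6 FPKM). PDPN had the highest median in all 4 groups.

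At 3 hours, PDPN and NRP2 were higher and FIGF was lower than in the control group. This is 3 of 8 genes past the threshold, where 45.4% of all genes tested were past it, 23.2% as higher and 22.2% as lower. At 3 days, the same 3 genes were past the threshold in the same directions, against 17.6% of all genes, 10.6% as higher and 7% as lower. At 14 days, edgeR called none of the 8 genes and 0 of all genes (0%). In that comparison, PDPN, NRP2, and RELN had an unadjusted p under 0.05, as did 1538 (10.4%) of all genes, while the DESeq2 test called 2 members (NRP2 and RELN) and 367 genes (2.49%). The median log2 fold change of the 8 genes was 0.97 at 3 hours, 0.24 at 3 days, and 0.11 at 14 days, beside 0.02, -0.00182, and 0.02 over all genes. Without regard to the test, LYVE1, PDPN, and NRP2 were above every control library in CPM at 3 hours, and FIGF was below every control library. This is 4 of 8 genes without overlap, against 57.3% of all genes. By FPKM, LYVE1 overlapped with the control group at 3 hours. At 3 days, PROX1, PDPN, and NRP2 lay above and FIGF below, beside 45.5% of all genes. At 14 days, all 8 genes overlapped with the control group, and 11.1% of all genes did not.

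**Figure D1:**
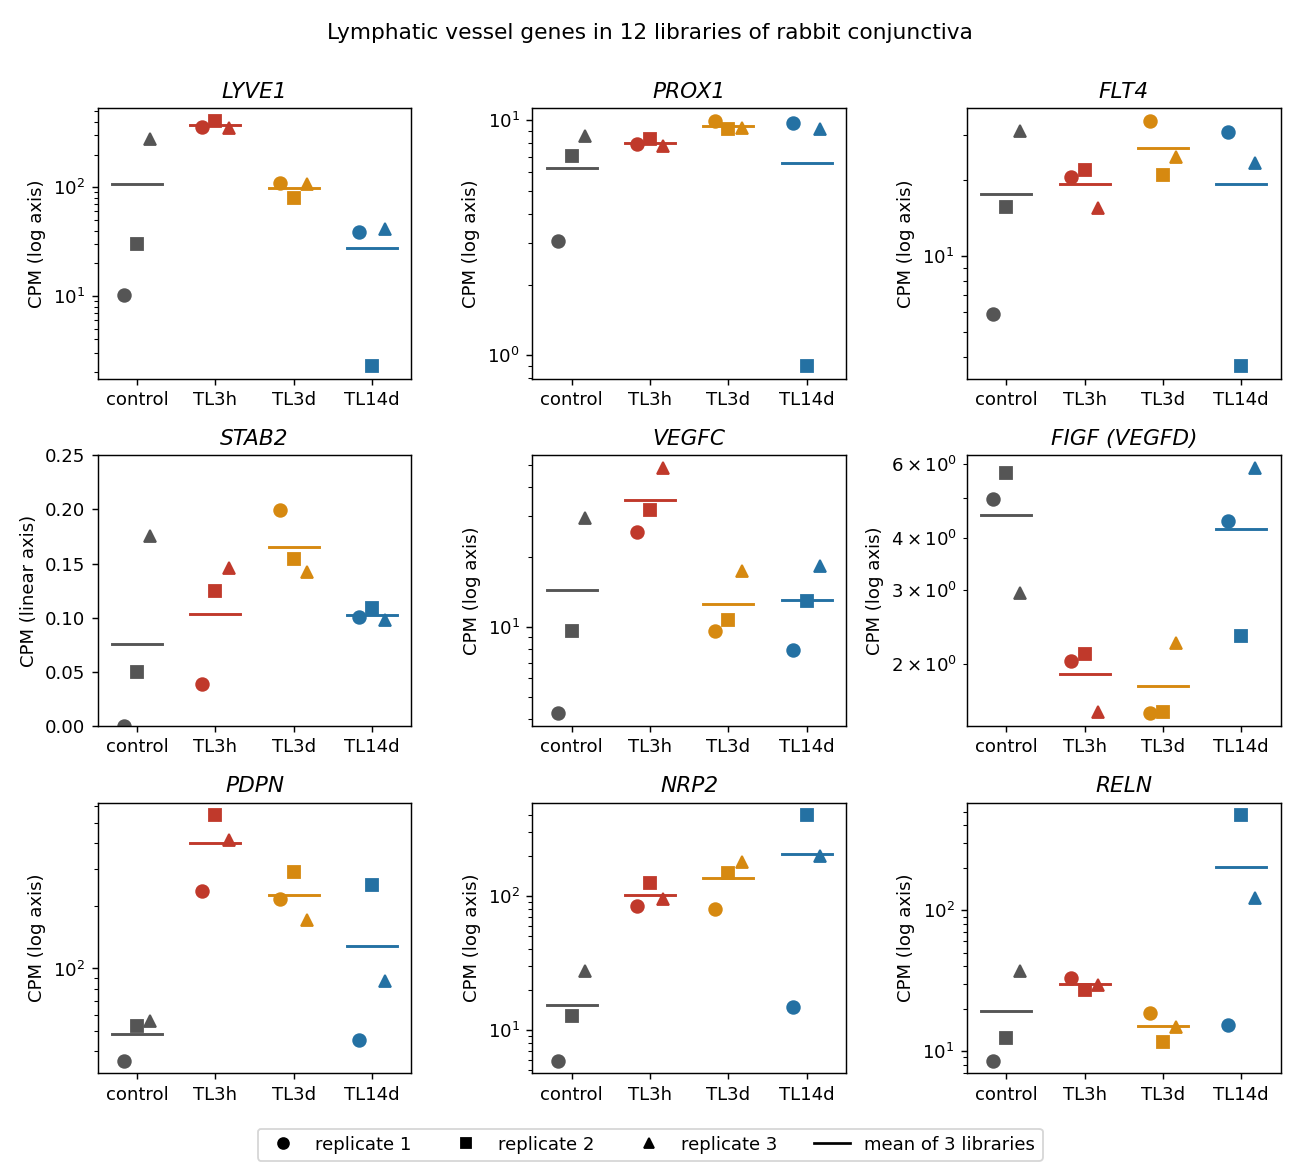
Level in CPM of the 9 genes in each library, by group (control, TL3h, TL3d, TL14d; 3 libraries each); the axes are logarithmic except for STAB2, symbols mark the replicate, and lines mark the mean. PDPN and NRP2 lie above the control libraries in every TL3h and TL3d library, and TL14d replicate 2 is the lowest library for LYVE1, PROX1, and FLT4 and the highest for NRP2 and RELN.

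LYVE1 was at 10.3, 30.1, and 281 CPM in the control libraries. It was at 357, 410.2, and 348 CPM in the TL3h libraries and at 109, 80.3, and 106 CPM in the TL3d libraries. The TL14d libraries held 39.2, 2.26, and 41.5 CPM. In CPM, all 3 TL3h libraries lay above all others. The control group ran from a level under that of most TL14d libraries to a level close to the TL3h group. By FPKM, control replicate 3 (93.4) lay above TL3h replicates 1 and 3 (89.3 and 89.1). Over the control group, the change at 3 hours did not pass the threshold (log2 fold change 1.80, standard error 1.13, q = 0.225), nor did those at 3 days (log2 fold change -0.12, standard error 1.10, q = 0.950) and 14 days (log2 fold change -1.95, standard error 1.14, q = 0.580). Control replicate 3, with 281 CPM, decided the call at 3 hours: without it the log2 fold change was 4.15 (q = 0.0114), while those at 3 days and 14 days remained short of the threshold at 2.28 (q = 0.128) and 0.45 (q = 0.881). From 3 hours to 14 days, LYVE1 fell by 3.75 on the log2 scale (standard error 1.23, q = 0.0303), from a mean of 372 ± 33.7 CPM to 27.7 ± 22.0 CPM (SD, n = 3 each). That call was lost when any 1 TL3h or TL14d library was left out, with q between 0.0527 and 0.0614 and log2 fold changes between -4.16 and -3.20.

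PROX1 and FLT4, a transcription factor and a receptor of lymphatic endothelium, had no call at any time. PROX1 was at 3.06, 7.08, and 8.58 CPM in the control group and at 7.92, 8.34, and 7.76 CPM in the TL3h group. The TL3d libraries held 9.97, 9.15, and 9.28 CPM, and the TL14d libraries 9.75, 0.897, and 9.15 CPM. The TL3h and TL3d libraries thus lay close together, TL3d replicates all being above the control range, and the spread was in the control and TL14d groups. FLT4 was at 5.91, 15.7, and 31.2 CPM in the control group and at 20.6, 21.8, and 15.4 CPM in the TL3h group, and at 34.3, 21.0, and 24.6 CPM in the TL3d group. The TL14d libraries held 31.0, 3.67, and 23.4 CPM. No comparison between groups passed the threshold for either gene, including those between time points, and none had an unadjusted p under 0.05 by edgeR. After 3 hours, PROX1 differed from the control group by 0.36 (standard error 0.66) and FLT4 by 0.13 (standard error 0.69) on the log2 scale. Both turned to negative values, -0.13 and -0.33, when CPM were scaled by library size only, a scaling that shifted the median of all genes at 3 hours to -0.47. STAB2 was near the limit of detection, with 0 to 8 counts in every library. Its levels reached 0.20 CPM at most. In the library with no STAB2 read, counting error still allows up to 3 reads, and 3 reads correspond to between 0.0712 and 0.124 CPM over the libraries. No test of STAB2 is given here, since it did not pass the filter on low counts.

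Of the ligands of VEGFR-3, FIGF changed and VEGFC had no call over the control group. VEGFC was at 4.22, 9.63, and 29.4 CPM in the control group and at 25.7, 32, and 48.6 CPM in the TL3h group. The TL3d libraries held 9.62, 10.7, and 17.5 CPM, and the TL14d libraries 7.97, 12.9, and 18.4 CPM. The TL3h libraries were the highest group on average, but control replicate 3 was above TL3h replicate 1. The change at 3 hours was not past the threshold (log2 fold change 1.30, standard error 0.61, q = 0.111), although without control replicate 3 it was (log2 fold change 2.30, q = 0.00579), as it was by limma (log2 fold change 1.56, q = 0.0428). Every TL3d and TL14d library lay below every TL3h library. The decrease from 3 hours was 1.49 on the log2 scale at 3 days by the fit and missed the threshold (q = 0.0816), as did that at 14 days (log2 fold change -1.44, q = 0.0811).

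FIGF, the gene of VEGF-D, was at 4.96, 5.73, and 2.96 CPM in the control group. It fell to 2.04, 2.12, and 1.54 CPM in the TL3h group and to 1.52, 1.54, and 2.25 CPM in the TL3d group. Every TL3h and TL3d library was below the lowest control library. On the log2 scale, the change over the control group came to -1.26 after 3 hours (standard error 0.38, q = 0.0216) and to -1.36 after 3 days (q = 0.0381). At 14 days, FIGF was at 4.40, 2.34, and 5.89 CPM, which overlapped with the control group (log2 fold change -0.11, standard error 0.37, q = 0.936) and lay above every TL3h library (log2 fold change over TL3h 1.15, q = 0.0327). These calls were close to the threshold: at 3 hours q rose to between 0.0611 and 0.0795 without control replicate 1, control replicate 2, or TL3h replicate 3, and at 3 days to between 0.0523 and 0.126 without control replicate 1 or 2, TL3d replicate 1 or 2, or TL3h replicate 1. The difference between 14 days and 3 hours was lost without any single TL3h library or without TL14d replicate 1 or 3 (q up to 0.126), and with only the 6 libraries compared (q = 0.0568). PIR, which encodes the nuclear protein pirin, lies upstream of FIGF on the same (minus) strand, with 330 bases between them. The control libraries had 8.66, 10.4, and 6.40 CPM of PIR, the TL3h libraries 5.88, 5.31, and 5.12 CPM, and the TL3d libraries 5.40, 4.50, and 5.58 CPM. It also lay below the control range in every TL3h and TL3d library, but its test did not pass the threshold (q = 0.0546 and 0.0662). Whether reads of PIR contributed to FIGF was not tested.

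PDPN was higher at 3 hours and 3 days. It was at 36.2, 53.1, and 55.8 CPM in the control group and at 236, 546, and 414 CPM in the TL3h group. The TL3d group had 216, 292, and 171 CPM, and all 6 of these libraries lay above the control range. PDPN rose 8.24-fold at 3 hours (log2 fold change 3.04, standard error 0.59, q = 0.00215) and 4.68-fold at 3 days (log2 fold change 2.23, standard error 0.57, q = 0.0279). The call at 3 hours held in each of the 20 alternative settings. The call at 3 days was lost without control replicate 1, 2, or 3 or without TL3d replicate 1 or 2, with q between 0.0524 and 0.0971. At 14 days, the libraries held 45.3, 251, and 86.9 CPM, so that TL14d replicate 1 was within the control range and TL14d replicate 2 within that of the TL3h and TL3d groups (log2 fold change 1.40, standard error 0.55, q = 0.433). That value was 0.45 (q = 0.978) when TL14d replicate 2 was left out. From 3 hours to 14 days, the level fell by 1.64 on the log2 scale (standard error 0.56, q = 0.0350), a call that was lost without TL3h replicate 2 or 3 or TL14d replicate 1 or 3 (q up to 0.119), with only the 6 libraries compared (q = 0.116), and with scaling by library size only (log2 fold change -1.15, q = 0.103). It was -2.59 (q = 0.00202) without TL14d replicate 2. Both PDPN transcripts rose at 3 hours. XM_008275368.2 held a median of 67.5% of the summed PDPN transcript level in the control group and 63.0% in the TL3h group, and both transcripts were past the threshold at 3 hours (q = 0.0044 and 0.0039).

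NRP2 was at 5.91, 12.7, and 27.3 CPM in the control group and at 84.3, 125, and 95.3 CPM in the TL3h group. The TL3d group had 79.5, 149, and 181 CPM, and again all 6 libraries lay above the control range. NRP2 rose 6.63-fold at 3 hours (log2 fold change 2.73, standard error 0.93, q = 0.0354) and 8.91-fold at 3 days (log2 fold change 3.16, standard error 0.95, q = 0.0459). These calls were near the threshold. Leaving out control replicate 1 or 2, any TL3h library, or TL3d replicate 2 raised q at 3 hours to between 0.0505 and 0.110, and scaling by library size only lost that call as well (log2 fold change 2.26, q = 0.0568). At 3 days, q rose to between 0.0597 and 0.133 without control replicate 1 or 2, any TL3h or TL3d library, or TL14d replicate 3, and to 0.0517 without a filter on low counts. The fold changes themselves stayed between 2.34 and 3.43 on the log2 scale in those fits without 1 library. Without control replicate 3, both calls held, with log2 fold changes of 3.40 at 3 hours and 3.86 at 3 days. At 14 days, the libraries ranged most widely, with 14.8, 404, and 200.3 CPM. TL14d replicates 2 and 3 were the highest of all 12 libraries, whereas TL14d replicate 1 was within the control range. The log2 fold change of 3.75 at 14 days did not pass the threshold (standard error 0.97, q = 0.346) in the fit with all libraries, and was 4.30 (q = 0.0111) without TL14d replicate 1, 2.81 (q = 0.978) without TL14d replicate 2, and 4.46 (q = 0.432) without control replicate 3.

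Of the 6 NRP2 transcripts, XM_008259015.2 and XM_008259017.2 held most of the level. In the control group, their median shares were 55.6% and 35.7%. In the TL3d group, they were 50.3% and 33.4%, and the TL3h group was similar with 47.6% and 31.6%. TL14d replicate 2, the library with the highest NRP2 level, had these shares in the other order, 28.6% and 54.7%, while TL14d replicate 1 had 68.9% and 31.1%. Only XM_008259015.2 was past the threshold at 3 hours among the transcripts of NRP2 (log2 fold change 2.44, q = 0.0457), and none was at 3 days. Over the whole set, 14 of 19 transcripts were tested. At 3 hours 4 were past the threshold, against 28.3% of all transcripts tested, at 3 days 1 (XM_008275367.2 of PDPN), against 5.13%, and at 14 days 0, against 0%, where 7 had an unadjusted p under 0.05 by edgeR, DESeq2 called 3 (1.88% of all transcripts), and 2046 (7.84%) of all transcripts had such a p.

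RELN was at 8.54, 12.4, and 36.7 CPM in the control group and at 33.1, 27.2, and 29.6 CPM in the TL3h group. The TL3d group had 18.6, 11.5, and 14.8 CPM. RELN had no call at 3 hours (q = 0.599) or 3 days (q = 0.805). At 14 days, the libraries held 15.2, 476, and 122 CPM. TL14d replicates 2 and 3 thus lay above all other libraries, and TL14d replicate 1 lay within the control range. The mean was 204 ± 241 CPM (SD, n = 3), and the log2 fold change of 3.41 did not pass the threshold (standard error 0.99, q = 0.346). Without TL14d replicate 1 it was 3.96 (q = 0.0187), without TL14d replicate 2 it was 1.83 (q = 0.978), and without control replicate 3 it was 4.28 (q = 0.432). The difference from the TL3h group was past the threshold (log2 fold change 2.77, standard error 0.96, q = 0.0382), but without TL14d replicate 2 it was 1.19 (q = 0.245). It was also lost without any single TL3h library or without TL3d replicate 1 or 2, with q up to 0.101, with only the 6 libraries compared (q = 0.0783), and by limma (log2 fold change 1.67, q = 0.187).

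**Figure D2:**
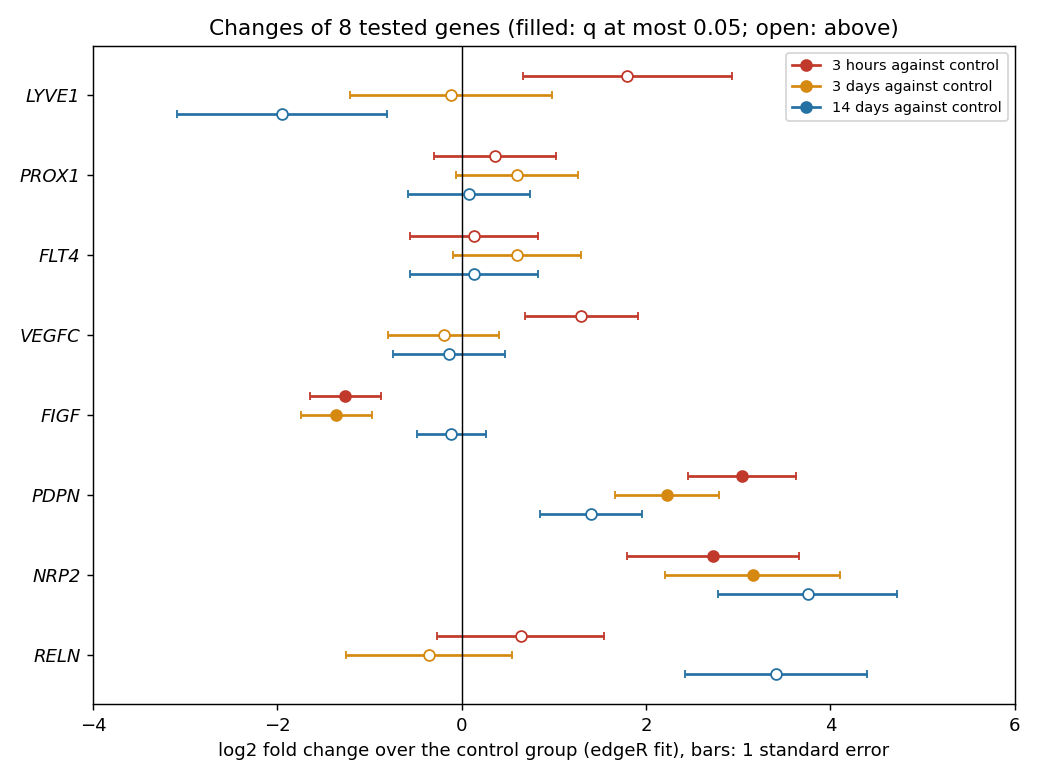
Log2 fold change over the control group (x axis) of the 8 tested genes at the 3 time points, with bars of 1 standard error; filled points have q of at most 0.05. PDPN and NRP2 are filled on the right and FIGF on the left at 3 hours and 3 days, and no point is filled at 14 days.

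Between time points, none of the 8 genes was past the threshold from 3 hours to 3 days by edgeR, where 37.3% of all genes were, 1 had an unadjusted p under 0.05 (47.5% of all genes did), and DESeq2 called 1 (44.9% of all genes). With only the 6 libraries compared, 3 were called (40.9% of all genes). From 3 days to 14 days, none was past it in the main fit, against 2.24% of all genes, 2 had an unadjusted p under 0.05 (22.6% of all genes), and DESeq2 called 2 (12.5% of all genes). From 3 hours to 14 days, 4 genes were past it, against 45.3% of all genes: FIGF and RELN were higher at 14 days, as were 22.9% of all genes, and LYVE1 and PDPN were lower, as were 22.3%. These comparisons share the libraries of their groups. In the test of any difference among the 4 groups, PDPN (q = 0.00797), RELN (q = 0.0127), FIGF (q = 0.0187), and NRP2 (q = 0.0433) were past the threshold. LYVE1 (q = 0.0870), VEGFC (q = 0.114), PROX1 (q = 0.814), and FLT4 (q = 0.847) were not, and 52.4% of all genes were.

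For 6 of the 8 tested genes, the ratio of the highest to the lowest library was widest in the TL14d group, and for LYVE1 and VEGFC it was widest in the control group (27.3 and 6.96, against 18.4 and 2.31 in the TL14d group). TL14d replicate 2 had the lowest level of all 12 libraries for LYVE1, PROX1, and FLT4. For LYVE1 it was 4.56-fold under the next lowest library, for PROX1 3.41-fold, and for FLT4 1.61-fold. Among 13253 genes tested with a mean of at least 1 CPM, this library was the lowest of all for 6.99%, and at least 3-fold under the next lowest for 64 genes, or 0.483%. Of the 54 tested genes of a wider list of lymphatic growth and function, 14 had their lowest level of all 12 libraries there and 4 (EPHB4, NFATC1, CCR7, and LRP8) their highest, beside 6.99% and 6.26% of those 13253 genes. CCL21, the chemokine through which lymphatic vessels draw dendritic cells, was at 154, 3.91, and 49.5 CPM in the TL14d libraries and at 23.6, 80.0, and 94.0 CPM in the control group. TBX1, a transcription factor of lymphatic development, was at 2.79, 0.245, and 2.67 CPM, and MMRN1, which encodes multimerin-1, was at 37.1, 3.61, and 46.6 CPM. CCL21 was 6.04-fold, TBX1 3.2-fold, and MMRN1 2.61-fold under the next lowest library. The pan-endothelial genes PECAM1 (18.0, 27.8, and 68.1 CPM) and CDH5 (7.03, 8.37, and 33.1 CPM) in that library were within the range of the other TL14d libraries. Other endothelial genes were low there: KDR and CLDN5 had their lowest level of all 12 libraries, and TEK and TIE1 their second lowest. Of the 11 blood endothelial markers tested, 5 were lowest of the TL14d group in that library and 1 was lowest of all 12, and their summed level was 137 CPM, against 264 and 487 CPM in the other TL14d libraries. In the same library, NRP2 and RELN were at their highest and PDPN was at the highest level of its group. TBX1, MMRN1, and CLDN5 were named here after their values were seen. TL14d replicate 1 was within the control range for LYVE1, FLT4, VEGFC, FIGF, PDPN, NRP2, and RELN, and above it for PROX1. TL14d replicate 3 was also within that range for LYVE1, FLT4, and VEGFC. Control replicate 1 was the lowest control library for LYVE1, PROX1, FLT4, VEGFC, NRP2, RELN, and PDPN, and control replicate 3 was the highest for the same 7 genes.

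**Figure D3:**
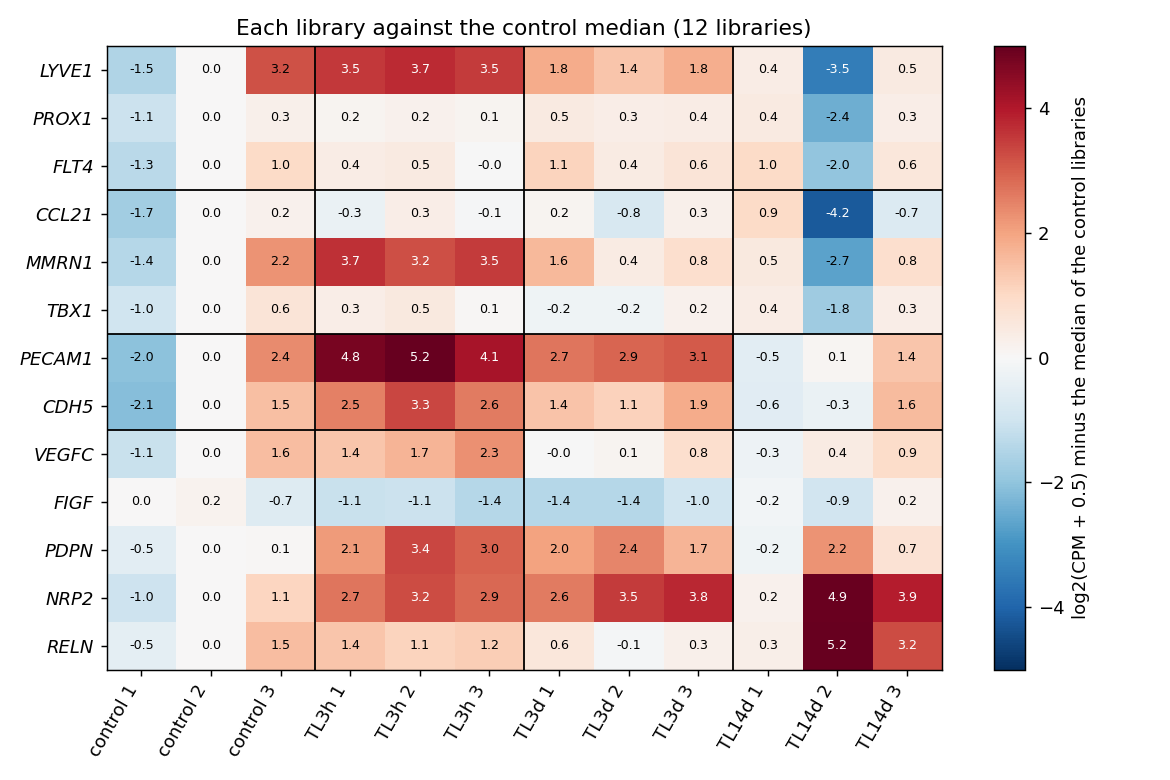
Each library (columns) against the median of the control libraries, as a difference of log2(CPM + 0.5) values, for 8 of the lymphatic vessel genes and 5 other endothelial genes (rows). TL14d replicate 2 is low for LYVE1, PROX1, FLT4, CCL21, MMRN1, and TBX1 (-4.2 to -1.8) and high for PDPN, NRP2, and RELN (2.2 to 5.2), while PECAM1 and CDH5 are near 0 there.

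The likeness of gene patterns was described by Pearson's r of log2(CPM + 0.5) over all 12 libraries, among 13274 genes. The libraries share tissue, groups, and scaling, so these values are descriptions. FLT4 was most like PROX1 (r = 0.947), then GPR182 (r = 0.911), which encodes a receptor of endothelium, and PDE2A (r = 0.901). PROX1 was most like FLT4, KLHL4 (r = 0.938), and CCL21 (r = 0.934). Without the 2 libraries farthest from the median of FLT4, which were TL14d replicate 2 and control replicate 1, the value for FLT4 and PROX1 was 0.827, and without the corresponding libraries that for PROX1 and CCL21 was 0.184, so that the second rests on them. LYVE1 was most like MMRN1 (r = 0.971), ECSCR (r = 0.960), an endothelial surface protein, and FCGRT (r = 0.941), which encodes the neonatal Fc receptor. Its value with PROX1 was 0.773 over all libraries and -0.232 without those 2 libraries, whereas that with MMRN1 was 0.934 without them. LYVE1 also followed C1QC, a complement gene of macrophages (r = 0.940, and 0.827 without those libraries). Over all 12 libraries, its r was lower with other macrophage genes: CD68 (0.399), CSF1R (0.375), MRC1 (0.559), STAB1 (0.703), and CD163 (0.720). With the endothelial genes PECAM1 and CDH5, the r of LYVE1 was 0.845 and 0.836. MMRN1 was at 336, 248, and 296 CPM in the TL3h group and at 9.42, 26.0, and 125 CPM in the control group.

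The genes most like the other members were of other kinds. PDPN was most like ARG1 (r = 0.979), which encodes arginase 1, ZFP1 (r = 0.977), and UCHL3 (r = 0.975). NRP2 was most like ADAM19 (r = 0.986), a membrane metalloprotease, PDLIM7 (r = 0.975), and TMSB15A (r = 0.966). RELN was most like EDIL3 (r = 0.926), RYK (r = 0.925), and COL9A2 (r = 0.917). EDIL3, a secreted integrin ligand, was at 0.168, 56.3, and 24.1 CPM in the TL14d libraries and at most 2.34 CPM in the other groups, and without TL14d replicates 2 and 3 its r with RELN was 0.559. VEGFC was most like DCLK2 (r = 0.968), SLC16A9 (r = 0.963), and SEC24D (r = 0.959). FIGF was most like SLC27A3 (r = 0.964), its neighbour PIR (r = 0.962), and SLC6A6 (r = 0.944). PDPN and FIGF ran in opposite directions, with r = -0.836.

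Marker genes of other cell types of the conjunctiva were followed in the same libraries. PECAM1, an adhesion protein of endothelium, was higher at 3 hours (log2 fold change 3.68, q = 0.0109), as was CDH5, the cadherin of endothelial junctions (log2 fold change 2.46, q = 0.0401). Of 11 blood endothelial genes tested, 3 were higher at 3 hours and 0 at 3 days by edgeR, against 23.2% and 10.6% of all genes (3 with an unadjusted p under 0.05 at 3 days, and 2 called by DESeq2, which called 30.3% of all genes), and their summed level ran from 132 to 693 CPM over the control libraries and from 828 to 1494 CPM over the TL3h libraries. It was 385 to 792 CPM in the TL3d and 137 to 487 CPM in the TL14d group. CD68, a lysosomal protein of macrophages, was higher at 3 hours (log2 fold change 1.98, q = 0.00357) and 3 days (log2 fold change 2.78, q = 0.00971), and CSF1R, their growth factor receptor, at 3 days (log2 fold change 2.35, q = 0.0440). The macrophage list had 2 of 10 genes higher at 3 hours, and 5 at 3 days, against the same shares of all genes, with summed levels of 152 to 1204 CPM in the control, 893 to 1391 CPM in the TL3h, 1701 to 2927 CPM in the TL3d, and 230 to 521 CPM in the TL14d libraries. Control replicate 3, the control library with the highest LYVE1, VEGFC, NRP2, and RELN, was also the highest control library for the summed macrophage (1204 CPM), blood endothelial (693 CPM), fibroblast (77176 CPM), and Schwann cell (184 CPM) genes. It was the lowest control library for the summed conjunctival epithelium (5324 CPM) and pericyte and smooth muscle (283 CPM) genes. The part of these cell types in the results was not tested.

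The fibroblast list had 0 of 9 genes past the threshold in the comparisons with the control group by edgeR, and 1 had an unadjusted p under 0.05 at 3 days, where DESeq2 also called 1. Against the TL3h group, 2 of 9 were lower at 3 days and 1 at 14 days. Of all genes, 37.3% and 45.3% were past the threshold in either direction, and 22.3% were lower at 14 days. The summed fibroblast level was 12337 to 77176 CPM in the control, 105730.4 to 126851 CPM in the TL3h, 1379 to 65194 CPM in the TL3d, and 11136 to 57503 CPM in the TL14d libraries. PDGFRA, a receptor of fibroblasts, was at 66.6, 123, and 310.3 CPM in the control group and at 8.37, 23.9, and 84.7 CPM in the TL3d group. The conjunctival epithelium list had 1 of 6 genes higher at 3 hours, against 23.2% of all genes, and 1 higher and 1 lower at 3 days, where 10.6% of all genes were higher and 7% lower. KRT5, a keratin of basal epithelium, was higher at 3 days (log2 fold change 1.86, q = 0.0291). The summed epithelial level was 5324 to 10923 CPM in the control, 4549 to 7323 CPM in the TL3h, 6528 to 16324 CPM in the TL3d, and 9792 to 12863 CPM in the TL14d libraries. The Schwann cell list had 1 of 7 genes higher at 3 days, against 10.6% of all genes. Of the 7 genes, 2 lay below and 1 above every control library, where 45.5% of all genes did not overlap. DESeq2 called 2 of the list and 30.3% of all genes, and the median log2 fold change of the list was -1.72. The pericyte and smooth muscle list had 1 of 7 lower at 3 hours, when 22.2% of all genes were lower. At 3 days, edgeR called 0 of the 7, 2 lay above every control library, and DESeq2 called 2, beside the same shares of all genes. The median log2 fold change of that list was 1.83. The sums of the Schwann cell list and of the pericyte and smooth muscle list were 44.1 to 184 CPM and 283 to 395 CPM in the control, 133 to 211 CPM and 213 to 231 CPM in the TL3h, 43.9 to 83.6 CPM and 467 to 1048 CPM in the TL3d, and 43.3 to 62.6 CPM and 328 to 798 CPM in the TL14d libraries. None of these lists had a gene past the threshold at 14 days by edgeR, 6 genes had an unadjusted p under 0.05 (10.4% of all genes), and DESeq2 called 2 (2.49% of all genes). CDH5, CSF1R, and KRT5 lost their calls when some single libraries were left out, with q up to 0.121, 0.134, and 0.0944. CDH5 also lost its call when scaled by library size only (q = 0.0646) and with only the 6 libraries compared (q = 0.0654), as CSF1R did with the 6 libraries (q = 0.0810). Control replicate 3 lowered several of these changes: without it, the log2 fold change was 5.44 for PECAM1, 3.63 for CDH5, and 3.49 for CSF1R. No gene of these lists was at 0 in all libraries of a group.

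**Figure D4:**
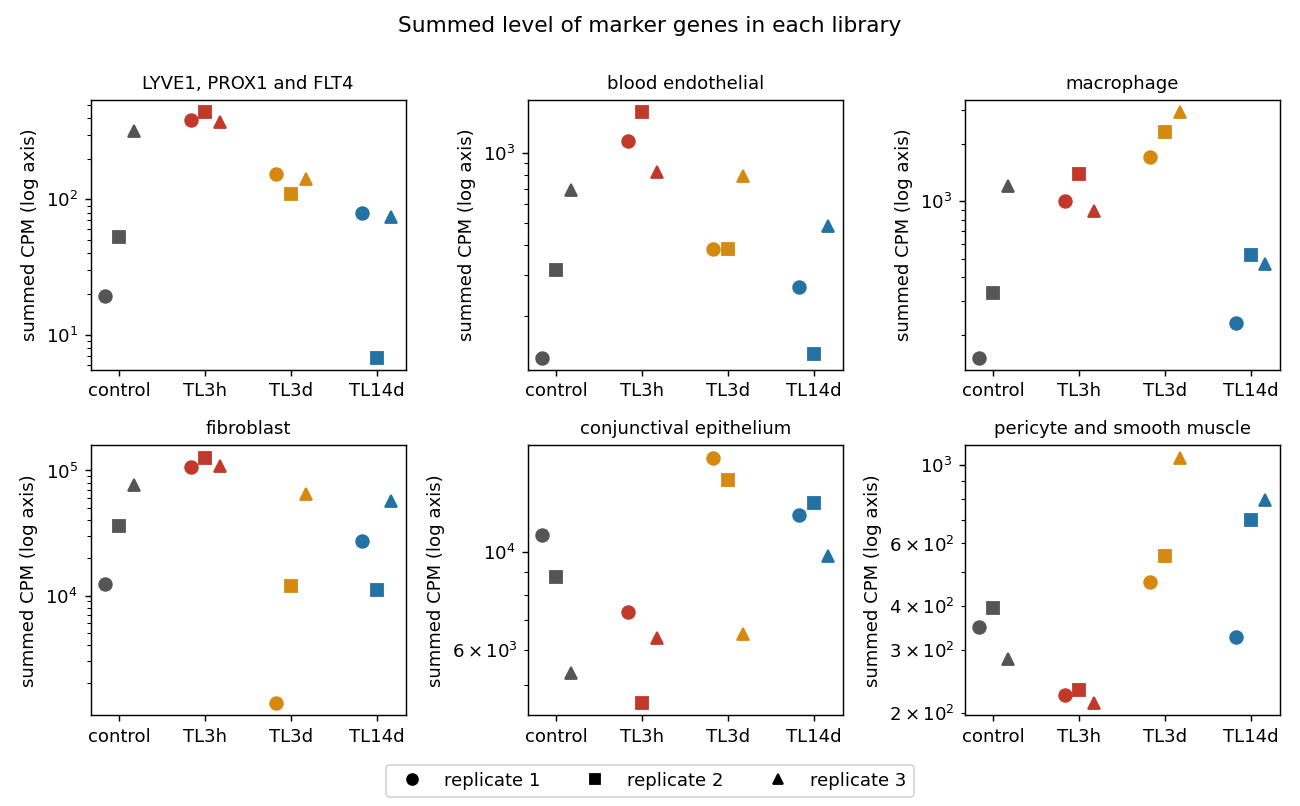
Summed CPM per library (log axes) of LYVE1, PROX1, and FLT4 and of 5 marker lists, by group with 3 libraries each. The sum of LYVE1, PROX1, and FLT4 is 371 to 440.4 CPM in the TL3h libraries and 6.82 CPM in TL14d replicate 2. In the TL3h libraries, most of this sum is LYVE1, at 348 to 410.2 CPM. The macrophage sum is highest in the TL3d libraries.

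The wider list held 59 genes, of which 54 were in the table and tested. At 3 hours, 14 were higher and 4 lower, which is 18 of 54 genes against 45.4% of all genes. At 3 days, 10 were higher and 1 lower, against 17.6%, and at 14 days 0 were past the threshold by edgeR, 6 had an unadjusted p under 0.05 (10.4% of all genes), and DESeq2 called 3 (2.49%). The median log2 fold change of the list was 0.52 at 3 hours, 0.23 at 3 days, and -0.09 at 14 days. From 3 hours to 14 days, 4 of 54 genes were higher and 17 lower, against 22.9% and 22.3% of all genes.

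VEGF-C is made as a precursor that is cut inside the cell by furin and related proteases and outside it by ADAMTS3 with the help of CCBE1. FURIN was higher at 3 hours (log2 fold change 1.66, q = 0.000311) and 3 days (log2 fold change 1.59, q = 0.00851), and PCSK7, a related protease, was higher at 3 hours (log2 fold change 1.30, q = 0.000483). CTSD, a lysosomal protease, was higher at 3 days (log2 fold change 0.78, q = 0.0363). CCBE1 was at 12, 10.1, and 32.3 CPM in the control group, and ADAMTS3 at 1.95, 2.23, and 11.7 CPM. In all operated groups together, CCBE1 was at 5.80 to 47.2 CPM and ADAMTS3 at 3.07 to 12.5 CPM, both overlapping with the control group, with no call. In total, 2 of 7 genes of this list were higher at 3 hours and 2 at 3 days, against 23.2% and 10.6% of all genes.

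Of the other VEGF family genes and receptors, VEGFA, the main growth factor of blood vessels, rose 3.40-fold at 3 hours (log2 fold change 1.77, q = 0.00336) and 3.07-fold at 3 days (log2 fold change 1.62, q = 0.0201). It was at 59.7, 87.2, and 82.2 CPM in the control group and at 284, 275, and 221 CPM in the TL3h group. KDR, which encodes VEGFR-2, was at 46.3, 19.4, and 32.8 CPM in the control group and at 21.0, 24.6, and 10.2 CPM in the TL3h group, and NRP1, the paralog of NRP2, was at 12.4, 27.2, and 139 CPM and at 117, 176, and 150.3 CPM. Neither KDR nor NRP1 passed the threshold at any time, with the smallest q at 0.179 for NRP1 at 3 days. In the angiopoietin pathway, which acts on vessel stability, ANGPT2 was higher at 3 hours (log2 fold change 2.25, q = 0.00540) and 3 days (log2 fold change 1.68, q = 0.0463), and at 2.98 and 2.44 on the log2 scale without control replicate 3. Its receptor TEK was at 1.52, 10.7, and 12.1 CPM in the control and 6.34, 6.43, and 6.29 CPM in the TL3h libraries, and TIE1 at 2.14, 8.20, and 13.4 CPM and 11, 12.2, and 7.35 CPM, with no call at any time.

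NR2F2, which encodes COUP-TFII, a factor that works with PROX1, was lower at 3 hours (log2 fold change -0.80, q = 0.000399), as was EPHB4, a receptor of veins and lymphatic valves (log2 fold change -1.09, q = 0.000637). HHEX, a transcription factor of vascular development, was higher at 3 days (log2 fold change 2.33, q = 0.0164). ADM, which encodes adrenomedullin, a peptide that acts on endothelial barriers, was higher at 3 hours (log2 fold change 4.72, q = 0.000643), with a mean of 456 CPM against 17.3 CPM. In the control group it was at 5.46, 6.53, and 39.8 CPM, and without control replicate 3 the log2 fold change was 6.19. GJA1, the gap junction gene connexin 43, was higher at 3 hours (log2 fold change 2.34, q = 0.000458). CCL21 had no call at any time, with log2 fold changes of 0.28 and 0.22 at the first 2 time points and 0.07 at 14 days, while CCR7, its receptor on immune cells, was higher at 3 days (log2 fold change 4.15, q = 0.0236).

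Of 8 partners of podoplanin and reelin, 2 were higher and 1 lower at 3 hours, and 4 were higher and 1 lower at 3 days. Of all genes tested, 45.4% were past the threshold at 3 hours and 17.6% at 3 days. CD44, a hyaluronan receptor that binds podoplanin, was higher at 3 hours (log2 fold change 2.25, q = 0.00188) and 3 days (log2 fold change 1.74, q = 0.0229). MSN, which encodes moesin, a linker of podoplanin to the cytoskeleton, was higher at 3 hours (log2 fold change 2.11, q = 0.000437) and 3 days (log2 fold change 1.29, q = 0.0206). CLEC1B, the gene of CLEC-2, was higher at 3 days (log2 fold change 2.75, q = 0.0206), at a mean of 2.80 CPM against 0.412 CPM. VLDLR, a receptor of reelin, was among the genes of the wider list with the lowest unadjusted p at 14 days (log2 fold change 2.16, q = 0.405). The others were EPHB4 (log2 fold change 0.76, q = 0.346), CCR7 (3.23, q = 0.351), and ADAMTS14, a protease of the ADAMTS3 family (3.97, q = 0.388). The calls at 3 days of CCR7, CD44, MSN, CLEC1B, HHEX, VEGFA, CTSD, and ANGPT2 were lost in some of the fits without 1 library, most often without control replicate 1 or 2, with q up to 0.150. With only the 6 libraries compared, ANGPT2 (q = 0.0861) and CTSD (q = 0.0504) lost their calls at 3 days as well, and ANGPT2 did so without a filter (q = 0.0530).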

How the data were processed

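RNA of rabbit conjunctiva was measured by stranded mRNA sequencing in 12 libraries, 3 in each of 4 groups, which were assigned from the sample labels. The authors mapped paired-end reads to OryCun2.0 with STAR (2.6.0c in the submitters' processing notes) and deposited estimated counts per gene and per transcript, not scaled by depth, and FPKM values, scaled by length and depth. In the gene table, 23.4% of the estimated counts were fractions, so they were rounded. How reads with several placements were shared is not given in the sources used here.

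Genes passing filterByExpr (minimum count 10, minimum total 15) were scaled by TMM and tested in 1 quasi-likelihood fit of all 12 libraries without covariates (edgeR 4.0.16, R 4.3.3), with Benjamini-Hochberg adjustment over all genes tested and a threshold of 0.05. Transcripts were tested likewise. Log2 fold changes used a prior count of 0.125. The study names edgeR and this threshold. TMM factors were 0.768 to 0.783 in TL3h and 1.03 to 1.13 in the other libraries. Estimated counts totalled 27111348 to 38591425 per library, and a count of 0 allows up to 3 counts (95% confidence, counting error only). An exact permutation test of 3 against 3 libraries cannot give a p below 0.1, so none was used. A comparison of counts within groups found no library deposited more than once. The fit was tested on simulated data.

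The set and the gene lists were chosen with earlier results of these data known, and no list result is independent evidence. The text names all members; of the wider list CCBE1, ADAMTS3, KDR, NRP1, VEGFA, CCL21, ANGPT2, TEK, and TIE1, and per comparison with control up to 8 genes with the lowest q past the threshold, or the 4 with the lowest p where none was; PECAM1, CDH5, CD68, CSF1R, PDGFRA, and KRT5 of the marker lists; and per member the 3 genes most like it among named genes whose mean reached 1 CPM. PIR, ECSCR, GPR182, EDIL3, and C1QC were shown as such genes or chosen after their values were seen. Alternatives were DESeq2 (1.42.0) size factors and test, library size only, limma-trend (3.58.1) with a pseudocount of 1, no filter, only the 6 libraries compared, a replicate block, each library left out, and, added after seeing the data, 3 libraries left out together. No sequences are shown, since none was used here.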

Additional observations from a re-analysis of the deposited data

Results flagged for a closer look

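For 4 genes, the test of the difference between operated groups gave a change from 3 hours to 14 days. The log2 fold change of TL14d over TL3h was -3.75 for LYVE1 (q = 0.0303, lower in 3 of 3 TL14d libraries than in any TL3h library), 1.15 for FIGF (q = 0.0327, higher in 3 of 3), -1.64 for PDPN (q = 0.0350), and 2.77 for RELN (q = 0.0382). For PDPN, 1 of 3 TL14d libraries was within the TL3h range, and for RELN 1 of 3 was below it. Among all genes tested, 45.3% were past the threshold in this comparison, and each of the 4 calls was lost in at least 4 of the fits without 1 library. With 3 libraries a group, no library was tested as an outlier.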

How the results depend on the processing

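Of 556 recomputed fold changes of the set, 450 kept direction and side of the threshold, 60 lost the call, 12 gained it, and 34, none of them called, turned in direction. Of 499 for the other named genes, 433 kept both and 66 lost the call. Counts of calls moved as follows in the 20 alternatives. Without control 3, TL3d 3, and TL14d 1 together, 5 members were past the threshold at 3 hours, 2 at 14 days, 1 from 3 hours to 3 days, and 1 from 3 days to 14 days; of the wider list 28, 20, and 9 were in the comparisons with control in order of time, and of the transcripts 9, 6, and 5. In that fit 52.6%, 25.9%, and 8.17% of all genes were called in the comparisons with control, 42.1% from 3 hours to 3 days, 2.40% from 3 days to 14 days, and 31.4%, 10.7%, and 2% of all transcripts. DESeq2 called 2 members at 14 days, 1 from 3 hours to 3 days, and 2 from 3 days to 14 days, 19 and 3 genes of the wider list at 3 days and 14 days, and 5 and 3 transcripts (18.7% and 1.88% of all); it gave no adjusted p for LYVE1. With only the 6 libraries compared, 3 members were called from 3 hours to 3 days (40.9% of all genes), 2 from 3 hours to 14 days (36.7%), and 4 transcripts at 3 days (10.1%). By limma 3 transcripts (9.11% of all) and without a filter 0 transcripts (2.68%) were called at 3 days. Leaving out each library gave 1 to 5 members at 3 hours, 0 to 3 at 3 days, 0 to 2 at 14 days, 0 to 1 from 3 hours to 3 days, 0 to 1 from 3 days to 14 days, and 0 to 5 from 3 hours to 14 days; 14 to 23, 1 to 17, and 0 to 6 genes of the wider list; and 2 to 6, 0 to 4, and 0 to 3 transcripts. In these fits, 34.9% to 48.1% of all genes were called at 3 hours, 2.37% to 25% at 3 days, 0% to 4.74% at 14 days, 26.1% to 41.2% from 3 hours to 3 days, 0% to 3.87% from 3 days to 14 days, and 36.2% to 45.0% from 3 hours to 14 days, and 18.1% to 29.6%, 0% to 10.7%, and 0% to 1.57% of all transcripts.

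Log2 fold changes that were not called also turned in direction. With limma, those of VEGFC were 0.15 at 3 days and 0.17 at 14 days, of FLT4 -0.0087 and of PROX1 -0.20 at 14 days, and of LYVE1 1.09 at 3 days. Without the 3 libraries together, they were 0.54 and 1.16 for VEGFC, 2.22 and 0.11 for LYVE1 at 3 days and 14 days, -0.028 for PROX1 at 14 days, and 0.52 for RELN at 3 days. By library size only, they were -0.33 for FLT4 and -0.13 for PROX1 at 3 hours. Leaving out each library gave -0.63 to 0.85 and -0.58 to 0.91 for VEGFC at 3 days and 14 days, -0.43 to 0.18 for FIGF at 14 days, -0.28 to 0.79 and -0.38 to 0.84 for FLT4 at 3 hours and 14 days, -0.66 to 2.28 and -2.49 to 0.45 for LYVE1 at 3 days and 14 days, -0.32 to 0.60 for PROX1 at 14 days, and -0.71 to 0.51 for RELN at 3 days.

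The labels do not say that replicate numbers mark a shared animal or batch, and the libraries were not taken as pairs. Correlations of deviations over a control and an operated library were over 0.1 in 5 of 9 pairs of the same number (mean 0.157, -0.149 to 0.517) and in 5 of 18 pairs of different numbers (mean -0.0791, -0.560 to 0.416), and 5 of 9 operated libraries correlated best with the control library of their number, so that a link was not settled. With the replicate block, 1 member was called from 3 hours to 3 days and 3 transcripts at 3 days, VEGFC passed at 3 hours (log2 fold change 1.59, q = 0.00693), and the FIGF call at 3 days was lost (q = 0.0560), as were those of FIGF (q = 0.0600) and RELN (q = 0.105) from 3 hours to 14 days. Under the block the log2 fold changes of VEGFC were 0.10 and 0.12 at 3 days and 14 days, of LYVE1 0.57 at 3 days, and of PROX1 -0.044 at 14 days. The cause of these changes was not tested.

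Library size only gave 25% of calls at 3 hours as higher, beside 51.0% with TMM. From 3 hours to 3 days it gave 80.5% of calls as higher, beside 49.2% with TMM. From 3 hours to 14 days these shares were 77.6% and 50.7%. No test of STAB2 is given, as its counts were near the limit of detection.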

Other observations

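Beside the 9 genes, several other genes of the endothelium had their lowest level of all 12 libraries in TL14d replicate 2. KDR was at 4.81 CPM there (next lowest library 10.2 CPM), GATA2, a transcription factor of lymphatic valves, at 1.33 CPM (next lowest 4.65 CPM), CLDN5, a tight junction gene of endothelium, at 1.20 CPM (next lowest 3.65 CPM), and KLHL4 at 0.245 CPM (1.69 to 6.72 CPM in all other libraries). GPR182 was at 0 in this library, which allows up to 0.0815 CPM, and at 0.57 to 3.2 CPM in the others. TIE1 and TEK were the second lowest of all libraries there, and EPHB4 and NFATC1 the highest. These genes were picked after their values were seen, and no test was made.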
